A study of Mus musculus with 2 samples.

Results

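Naive-type CD4 T cells of the adult mouse lung were examined in 2 single-cell RNA sequencing (scRNA-seq) libraries, 1 labelled GFI1 KO and 1 labelled GFI1 WT. They numbered 131 cells among 29837 cells that passed quality filters, 15 of 10495 from the lung labelled GFI1 KO and 116 of 19342 from that labelled GFI1 WT. The cells were chosen by measured values: at least 2 unique molecular identifiers (UMIs, 1 per captured RNA molecule) over Cd3d, Cd3e and Cd3g, at least 1 of Cd4, at least 1 over Lef1 and Tcf7, and 0 of Trdc, Cd8a, Cd8b1, Foxp3, Cxcr6, Icos, Ctla4, Il1rl1, Ebf1, Csf1r, Mertk and Ptprb. These 18 genes are therefore no finding. Both libraries came from lungs of adult mice that were dissociated with enzymes and sorted for live cells. The mice were on the C57BL6/J background, the KO was a germline one and so not limited to T cells, and the labels name no treatment. With 1 library per label, a difference between genotypes cannot be told apart from a difference between mice or libraries, so no test was possible. The methods of the study describe duplicates for each genotype, and further libraries were not analysed here. The intervals given are 95% intervals for counting error alone.

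GFI1 is a zinc finger repressor of transcription that acts in many blood cell lineages, T cells included. A naive CD4 T cell has left the thymus, has not yet met its antigen, and circulates between blood and lymph nodes. It is kept quiescent by factors such as TCF1 (Tcf7), LEF1, FOXP1, BACH2 and SATB1, is guided to lymph nodes by the chemokine receptor CCR7, leaves tissue along sphingosine-1-phosphate through S1PR1, and survives on IL-7. After activation it lowers this program and gains adhesion, chemokine receptor and cytokine genes.

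The targeted gene itself gave no support for the labels. Gfi1 had 0 UMIs in the 15 cells labelled GFI1 KO and 2 UMIs in the 116 cells labelled GFI1 WT. Over all cells that passed the filters, Gfi1 stood at 3.6 CPM (UMIs per 1000000 UMIs) under the KO label and 3.47 CPM with the WT label. In Foxp3-negative CD4 T cells with Icos, Ctla4, Cxcr6 or Il1rl1 UMIs it was higher under the KO label, at 41.9 and 10 CPM. A 3′ tag can lie outside a deleted part of a gene, so these counts cannot say whether the deletion is present, and every direction below is one between the library labelled GFI1 KO and the library labelled GFI1 WT.

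Surface antibody tags, which the rule did not use, were read as UMIs per cell. The median CD4 tag was 287 UMIs under the KO label and 202.5 UMIs under the WT label, against 0 and 1 UMIs in B-type cells of the same libraries. The median CD8a tag was 1 and 2 UMIs, whereas naive-type CD8 T cells carried 439 and 377 UMIs. All 116 cells labelled GFI1 WT had at least 30 CD4 tag UMIs and fewer than 30 CD8a tag UMIs. Of the 15 cells labelled GFI1 KO, 12 did so. The other 3 were a cell with 23 CD4 and 39 CD8a tag UMIs, a cell with 415 CD4, 52 CD8a and 902 CD11b tag UMIs, and a cell with 200 CD4 and 166 CD8a tag UMIs. Tags of other cell types were also seen under the WT label, where 1 cell had 1096 CD11b tag UMIs and the highest Ly-6G tag was 246 UMIs. CD45, found on all leukocytes, had medians of 949 and 646.5 UMIs, and it was also more abundant under the KO label on B-type cells, at 653 and 485 UMIs. CD4 tags per 100 CD45 tags were 29.6 and 31.2. CD127, the IL-7 receptor chain, had medians of 19 and 14 UMIs, against 3 and 6 UMIs on B-type cells.

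**Figure D1:**
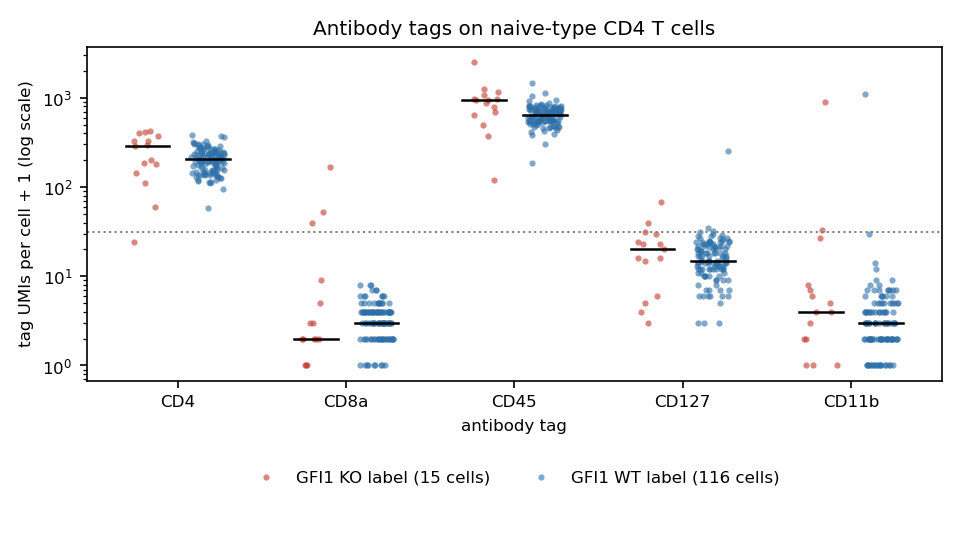
Antibody tag UMIs per cell plus 1 (log scale) for 5 tags on the 15 naive-type CD4 T cells labelled GFI1 KO and the 116 labelled GFI1 WT. Each point is a cell, black bars are medians and the dotted line marks 30 UMIs. A single cell labelled GFI1 KO lies under the line for CD4 and 3 lie over it for CD8a.

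The RNA of the chosen cells was that of αβ T cells. Trac, the α chain constant gene, stood at 618 CPM with the KO label and 562 CPM with the WT label, and Trbc2, a β chain constant gene, at 2274 and 1762 CPM. In B-type cells Trac stood at 1.34 and 1.75 CPM and Trbc2 at 3.36 and 5.09 CPM. Dusp10, a phosphatase of MAP kinases, and St8sia6, a sialyltransferase, are the remaining markers of this class that the rule did not use. Dusp10 was seen in 13 of 15 cells and 108 of 116 cells, and St8sia6 in 8 of 15 and 69 of 116 cells. Summed, these markers stood at 1582 and 2712 CPM, against 732 and 2035 CPM in Foxp3-negative CD4 T cells with Icos, Ctla4, Cxcr6 or Il1rl1 UMIs. Under the WT label neither was at least 2-fold higher than in that class, against 1.34% of all genes compared. Median depth was similar, at 5793 UMIs per cell under the KO label and 5163.5 under the WT label. Summed over cells, and without ribosomal, mitochondrial and Gm- genes, the KO label held 54977 UMIs and the WT label 414766. A gene with 0 UMIs could thus have stood at up to 54.6 CPM in the first and 7.23 CPM in the second, the level of 3 UMIs.

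Icos and Cd4 UMIs kept many similar cells out of the class. Among cells with CD3, Cd4 and Lef1 or Tcf7 UMIs, 75.3% under the KO label and 71.5% under the WT label had an Icos UMI, and 51 of 89 and 176 of 555 had a Ctla4 UMI. Icos alone kept out 15 and 215 cells, of which 5 and 77 had a single Icos UMI. A further 24 and 155 cells met every condition but had no Cd4 UMI, and 20 and 116 of them carried the CD4 tag. Of the cells inside, 10 of 15 and 68 of 116 had exactly 1 Cd4 UMI. Cd4 RNA was thus sparse in cells whose CD4 tag was abundant, and cells just outside the rule are used below as a second reading in the same libraries.

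Naive-type CD4 T cells made up 2.05% of the cells with CD3 UMIs under the KO label (15 of 732, Clopper-Pearson interval 1.15 to 3.36%) and 4.89% under the WT label (116 of 2373, 4.06 to 5.83%). The difference was -2.84 percentage points (-4.14 to -1.29). Among all CD4 classes together, the shares were 14.7% and 22.1%, and the interval of that difference, -14.7 to 1.65 points, included 0. Among naive-type CD4 and CD8 T cells together, the CD4 cells were 16.0% and 28.9%, a difference of -13.0 points (-21.2 to -2.96). Naive-type CD8 T cells themselves were 10.8% and 12% of cells with CD3 UMIs, and the interval of their difference, -3.77 to 1.57 points, included 0. The antibody tags gave the same direction for CD4 T cells as a whole: 26.6% of cells with CD3 UMIs were CD4 tag positive and CD8a tag negative under the KO label, and 40.1% under the WT label (difference -13.5 points, -17.2 to -9.58). These are shares of cells captured after a sort, and they give no cell numbers per lung.

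**Figure D2:**
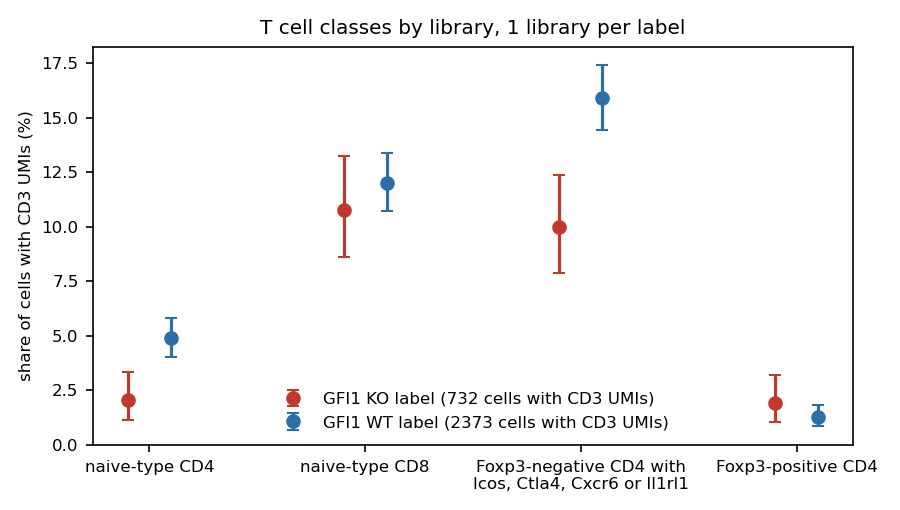
Share of cells with CD3 UMIs (%) held by 4 T cell classes in the library labelled GFI1 KO (732 cells with CD3 UMIs) and that labelled GFI1 WT (2373). Points are shares of 1 library each and bars are 95% Clopper-Pearson intervals. Naive-type CD4 T cells were 2.05% and 4.89%, with intervals that do not overlap, and those of naive-type CD8 T cells overlap.

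The genes that keep T cells naive were abundant under both labels, and none of those compared differed by 2-fold. Satb1, a chromatin organizer, was the most abundant of the list, at 5275 CPM with the KO label and 5184 CPM with the WT label (ratio 1.02, 0.897 to 1.15). Bach2, a repressor of effector genes, stood at 2765 and 3313 CPM (ratio 0.835, 0.701 to 0.987), and Foxp1, a quiescence factor, at 2128 and 3079 CPM (ratio 0.691, 0.567 to 0.836). Il7r stood at 2128 and 1979 CPM (ratio 1.08, 0.878 to 1.31). Of 28 listed genes of the naive program, 27 had enough UMIs to compare, and none of them was at least 2-fold higher or 2-fold lower under the KO label. Among all 3357 genes compared, 4.71% were at least 2-fold higher and 11.9% at least 2-fold lower. Such genes were fewer among those with at least 100 UMIs, 13 higher and 46 lower of 960, so that a count of none among abundant genes is near the background. The list had a median log2 ratio of -0.13, against -0.08 for all genes compared. Summed over the list, the level was 28921 CPM with the KO label and 31958 CPM with the WT label (ratio 0.905, 0.859 to 0.953). The same list summed to 26084 and 29038 CPM in naive-type CD8 T cells, also lower under the KO label. It summed to 18590 and 18430.5 CPM in B-type cells, so much of its abundance was not particular to T cells. Levels are over all UMIs except those of ribosomal, mitochondrial and Gm- genes. Over all gene UMIs the log2 ratio of the summed list would be -0.26 in place of -0.14. Scaling by the trimmed mean of M values (TMM) would lower every log2 ratio by 0.17.

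Homing genes summed to a slightly lower level under the KO label (ratio 0.832, 0.732 to 0.944), with values on both sides of 1. In CD4 T cells by tag that the rule left out, with Icos allowed (55 and 469 cells), the ratio was 1.05 (0.988 to 1.11), so that the lower level was not seen there. With CD4 by tag and Icos still excluded (32 and 232 cells, naive-type cells among them) it was 0.901 (0.825 to 0.983). Ccr7 stood at 782 CPM with the KO label and 665 CPM with the WT label (ratio 1.18, 0.832 to 1.63). Klf2, the factor that turns on S1pr1, stood at 1401 and 1975 CPM (ratio 0.709, 0.554 to 0.897), and S1pr1 at 600.3 and 964 CPM (ratio 0.622, 0.423 to 0.889). Among 12 homing genes compared, 2 were at least 2-fold lower and none higher, near the 11.9% lower and 4.71% higher of all genes compared. These were Cxcr4, a chemokine receptor, with 9 and 168 UMIs (ratio 0.404, 0.182 to 0.786), and Itgb1, the integrin β1 chain, with 1 and 30 UMIs (ratio 0.251, interval up to 1.51). Ccr7 was seen in 12 of 15 and 87 of 116 cells.

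Genes of memory and activated CD4 T cells were low. Cd44, an adhesion receptor that activated T cells keep high, stood at 72.8 CPM with the KO label and 74.7 CPM with the WT label, in 4 of 15 and 13 of 116 cells, with 15 of its 31 UMIs under the WT label in 1 cell. S100a4, a calcium-binding protein of memory cells, had 1 and 23 UMIs, of which 19 lay in 1 cell, and Lgals1, a galectin of activated cells, stood at 182 and 193 CPM. Of 37 listed memory and activation genes, only 12 had enough UMIs to compare between labels, and 2 of these, Itgb1 and Rora, were at least 2-fold lower under the KO label, against 11.9% of all genes compared. Their summed level over all 37 was 2547 and 2828 CPM (ratio 0.900, 0.750 to 1.07). This direction turned in other sets, to a log2 ratio of 1.55 in thinned cells and 0.49 with Icos allowed. The thinned cells were chosen anew by the rule from their thinned counts (4 and 63 cells), so they were not the same set. In the 55 and 469 CD4 T cells that the rule left out, the ratio was 1.32 (1.24 to 1.41). The direction stayed with CD4 by tag and Icos still excluded (32 and 232 cells, naive-type cells among them, ratio 0.939, 0.829 to 1.06). The planned settings other than thinning that were run for this sum kept it too. At least 2 of 6 memory genes (S100a4, S100a6, Cd44, Itgb1, Maf and Il2rb) were seen in 3 of 15 cells (20%) and 9 of 116 cells (7.76%). No UMI was seen in the 131 cells of Lag3, Cxcr3, Ccr4 and Ccr6. Among 18 lineage factors and cytokines of helper cells, 11 had no UMI in these cells, including Ifng, Il4, Il5, Il13, Il17a, Il17f and Il22.

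Set against Foxp3-negative CD4 T cells with Icos, Ctla4, Cxcr6 or Il1rl1 UMIs, the naive-type cells differed far more in memory genes than in naive genes. Under the WT label, 29 of 35 memory and activation genes compared were at least 2-fold lower in naive-type cells and none was 2-fold higher. Over all 7767 genes compared, 9.22% were lower and 1.34% higher by that fold. S100a6 stood at 45.8 CPM in naive-type cells and 508 CPM in the other class (ratio 0.0901, 0.0540 to 0.142), and Rora at 121 and 565 CPM (ratio 0.213, 0.157 to 0.283). Of 12 cell cycle genes, 10 were at least 2-fold lower, Mki67 and Top2a among them. The other class was defined by activation genes, which sets part of this direction. Of its 377 cells under the WT label, 215 met every condition of the naive-type rule except that on Icos, as did 15 of 73 under the KO label. The part of this make-up in the contrasts here and below was not tested. Of 28 naive program genes, 1 (Tdrp) was at least 2-fold higher, and the median log2 ratio was 0.37, against -0.03 for all genes compared.

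The 2 libraries were unlike in how far this neighbouring class stood from the naive-type cells. Satb1 was 1.29-fold (1.23 to 1.35) as high in naive-type cells as in the other class under the WT label, and 2.99-fold (2.59 to 3.46) under the KO label. For Bach2 the values were 1.33-fold (1.25 to 1.41) and 2.5-fold (2.05 to 3.04), and for Ccr7 1.37-fold (1.19 to 1.57) and 2.73-fold (1.85 to 3.97). The intervals of the 2 libraries did not overlap for these 3 genes, which were chosen after their values were seen, and the difference was not tested over mice. It lay in the other class: its naive program summed to 16971 CPM with the KO label and 25182 CPM with the WT label, and its memory genes to 20730.5 and 9335 CPM.

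**Figure D3:**
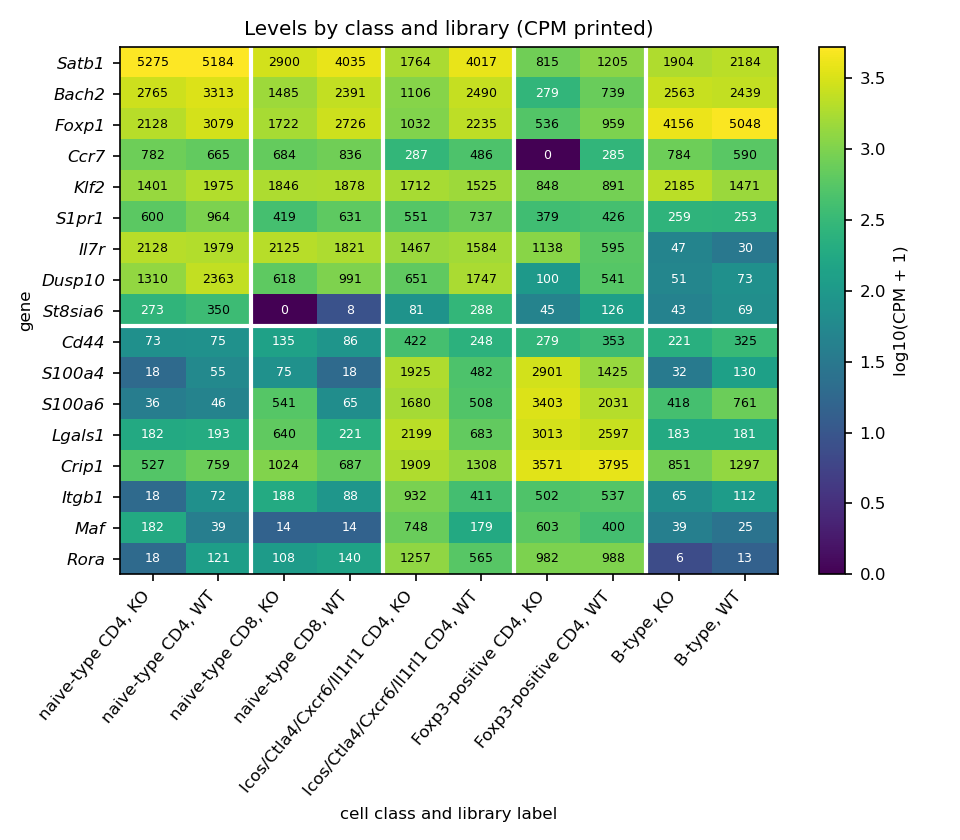
Levels (CPM, printed in each field and colored as log10 of CPM plus 1) of 9 naive genes and 8 memory genes in 5 cell classes of the libraries labelled GFI1 KO and GFI1 WT. The memory genes are low in naive-type CD4 T cells of both labels, with S100a6 at 36.4 and 45.8 CPM. In the CD4 class with Icos, Ctla4, Cxcr6 or Il1rl1, Satb1 is at 1764 CPM with the KO label and 4017 CPM with the WT label.

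Against naive-type CD8 T cells, genes were named by the size of the difference among those that differed the same way in both libraries. Cd40lg, the CD40 ligand through which helper cells act on B cells, stood at 182 CPM with the KO label and 116 CPM with the WT label, against 11 and 1.73 CPM in CD8 cells. St8sia6 stood at 273 and 349.6 CPM, against 0 UMIs and 7.79 CPM, and Ly6c1, a surface antigen, at 182 and 145 CPM, against 0 UMIs and 1.73 CPM. Also higher in CD4 cells by the rule for named genes were Sgms1 (sphingomyelin synthase), Lrig1, Cers6 (ceramide synthase), Tgfbr3 (a TGF-β co-receptor), Tmem64, Trib2 and Itm2a, but 21 of the 22 Itm2a UMIs of the KO label came from 1 cell. Lower were Ccl5, a chemokine of CD8 memory cells, with 0 and 16 UMIs against 1920 and 2665, and Nkg7, a granule protein, with 0 and 6 UMIs against 417 and 553. The remaining lower genes were Ly6c2, Il2rb (the IL-2 and IL-15 receptor β chain), Plac8, Klrc1 and Gzma (killer cell receptor and granzyme genes), Ctla2a, Runx2 and the unnamed gene ENSMUSG00000121360. Under the WT label 2.06% of 6747 genes compared were at least 2-fold higher and 6.37% at least 2-fold lower. The rule used none of these genes, but CD8 cells with memory features were left in the CD8 class.

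All 22 genes of the T cell receptor complex and its signalling that were compared lay within 2-fold, as most abundant genes did, with a median log2 ratio of 0.01 and summed levels of 19299 CPM with the KO label and 19968 CPM with the WT label (ratio 0.967, 0.906 to 1.03). Of 960 genes with at least 100 UMIs, 13 were at least 2-fold higher and 46 at least 2-fold lower. Among 14 cytokine receptor genes, 1 was at least 2-fold higher, against 4.71% of all genes compared. This was Il18r1, the IL-18 receptor, with 13 and 32 UMIs in 7 of 15 and 20 of 116 cells (236 and 77.2 CPM, ratio 3.06, 1.48 to 6.0). It was higher under the KO label in naive-type CD8 T cells as well, at 640.2 and 135 CPM, and in the CD4 class with Icos, Ctla4, Cxcr6 or Il1rl1, at 1009 and 331 CPM.

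Lower under the KO label were 401 genes, but 342 of these had fewer than 5 UMIs there, so that single values are weak. To read them a second time, cells of the same libraries were taken that met the rule except that CD4 came from the tag and Icos was allowed, leaving out the naive-type cells themselves. These were 55 cells labelled GFI1 KO and 469 labelled GFI1 WT, a set chosen after the values were seen, and 9.69% of 7278 genes were at least 2-fold lower in it and 4.01% at least 2-fold higher. They share mouse and library with the first reading, so their values are set side by side only.

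Il12rb2, the IL-12 receptor β2 chain, had 0 UMIs under the KO label and 49 UMIs in 21 of 116 cells under the WT label. The interval of the ratio reached up to 0.590. In the cells outside the rule it had 1 UMI in 55 cells and 294 UMIs in 101 of 469 cells (ratio 0.0327, interval up to 0.183). In naive-type CD8 T cells Il12rb2 stood at 276 and 242 CPM and in the CD4 class with Icos, Ctla4, Cxcr6 or Il1rl1 at 174 and 154 CPM. The last class shares cells that have both Cd4 and Icos UMIs with the set outside the rule. Il12rb2 was thus nearly without UMIs in both sets under the KO label, while its ratio was 1.14 and 1.13 in these other T cell classes. It was also lower under the KO label in B-type cells, at 15.5 and 38.6 CPM, and over all cells, at 81.2 and 254.5 CPM.

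Tex2 had 5 UMIs in 3 of 15 cells and 244 UMIs in 70 of 116 cells (ratio 0.155, 0.0498 to 0.366), and its ratio was 0.408 (0.293 to 0.554) outside the rule. Pde4d, a cyclic AMP phosphodiesterase, had 10 and 211 UMIs (ratio 0.358, 0.169 to 0.671), with 0.448 (0.309 to 0.628) outside the rule. Gata3, a factor of CD4 lineage choice and of type 2 helper cells, had 1 UMI in 1 cell and 62 UMIs in 30 cells (ratio 0.122, interval up to 0.704), with 0.415 (0.177 to 0.835) outside the rule. Gata3 had a ratio of 0.892 (0.456 to 1.64) in naive-type CD8 T cells and was higher under the KO label in the CD4 class with activation genes (1.64, 1.23 to 2.15). Dusp10 stood at 1309.6 CPM with the KO label and 2363 CPM with the WT label (ratio 0.554, 0.430 to 0.705), with 0.629 (0.557 to 0.708) outside the rule and ratios of 0.623 in naive-type CD8 T cells, 0.373 in the CD4 class with activation genes and 0.698 in B-type cells. Dusp10 was thus lower under the KO label in each of these classes.

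Other genes named by the rule were lower in the naive-type cells and nearer to 1 outside it. Adk, adenosine kinase, had a ratio of 0.480 (0.323 to 0.691) and 0.788 (0.664 to 0.929) outside the rule. Crybg1 had 0.402 (0.205 to 0.717) and 0.787 (0.619 to 0.989), and Zfp36l2, an RNA decay factor of lymphocyte quiescence, 0.391 (0.232 to 0.619) and 0.729 (0.601 to 0.878). In thinned cells chosen anew by the rule, of which 4 bore the KO label, the log2 ratio of Zfp36l2 turned to 0.85. Malt1, a protease of antigen receptor signalling, had 3 and 149 UMIs (ratio 0.152, 0.0310 to 0.453) but 0.988 (0.750 to 1.28) outside the rule. Tacc1 with 1 and 80 UMIs, Nmt2 with 0 and 48, Tet2, a DNA demethylating enzyme, with 0 and 48, Ctsd, a lysosomal protease, with 2 and 78, Eeig1 with 4 and 106 and Fgf13 with 9 and 195 UMIs had intervals outside the rule that included 1, except Fgf13, whose ratio turned to 1.41 (1.15 to 1.71).

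**Figure D4:**
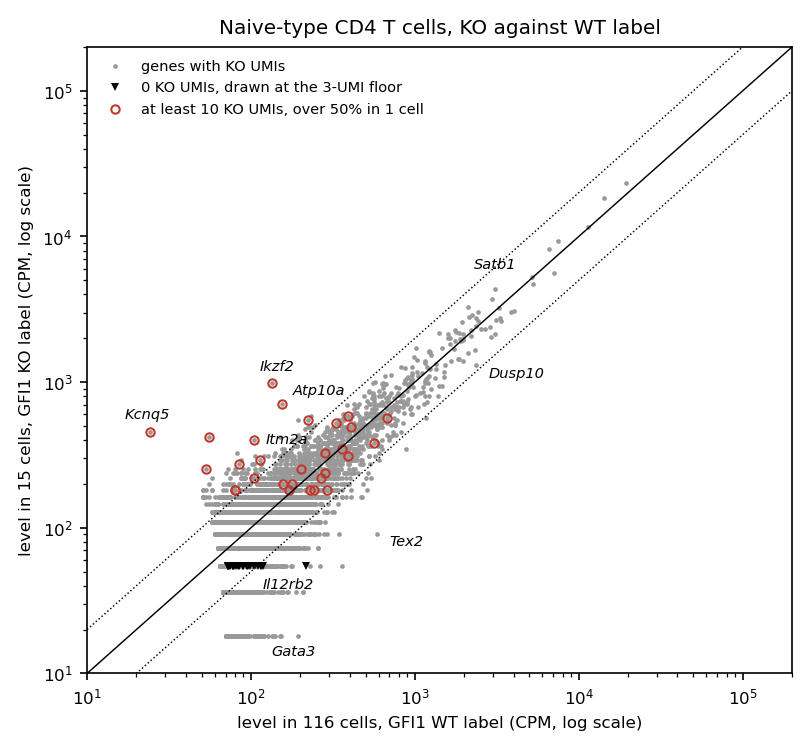
Level (CPM, log scales) of the 3357 genes with at least 30 UMIs in naive-type CD4 T cells, for 116 cells labelled GFI1 WT (x axis) and 15 labelled GFI1 KO (y axis). The solid line marks equal levels, dotted lines 2-fold, triangles genes with 0 KO UMIs at the 3-UMI floor of 54.6 CPM, and rings the 29 genes with at least 10 KO UMIs of which over 50% came from 1 cell. Satb1 lies on the line, and Ikzf2 and Kcnq5 are ringed.

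Higher under the KO label were 158 genes, and the largest ratios came from single cells. Kcnq5, a potassium channel, had 25 UMIs under the KO label and 10 under the WT label, and Ikzf2, the transcription factor Helios, had 54 and 56. All 25 Kcnq5 and all 54 Ikzf2 UMIs of the KO label lay in the cell with 23 CD4 and 39 CD8a tag UMIs, and 54 of the 56 Ikzf2 UMIs of the WT label lay in 1 cell too. The same KO-labelled cell held 21 of 22 Itm2a UMIs, 17 of 23 Ppm1l UMIs (a phosphatase) and 10 of 14 Mxi1 UMIs (a MYC antagonist). Without it, the ratio of Itm2a went from 3.86 to 0.192 (interval up to 1.13), that of Ppm1l from 7.54 to 2.16 (0.719 to 5.45) and that of Mxi1 from 4.80 to 1.5 (0.377 to 4.43). Of the 158 genes, 111 stayed at least 2-fold higher without this cell. Another cell held 22 of 39 Atp10a UMIs (a phospholipid flippase). The counting intervals do not cover this spread between cells.

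**Figure D5:**
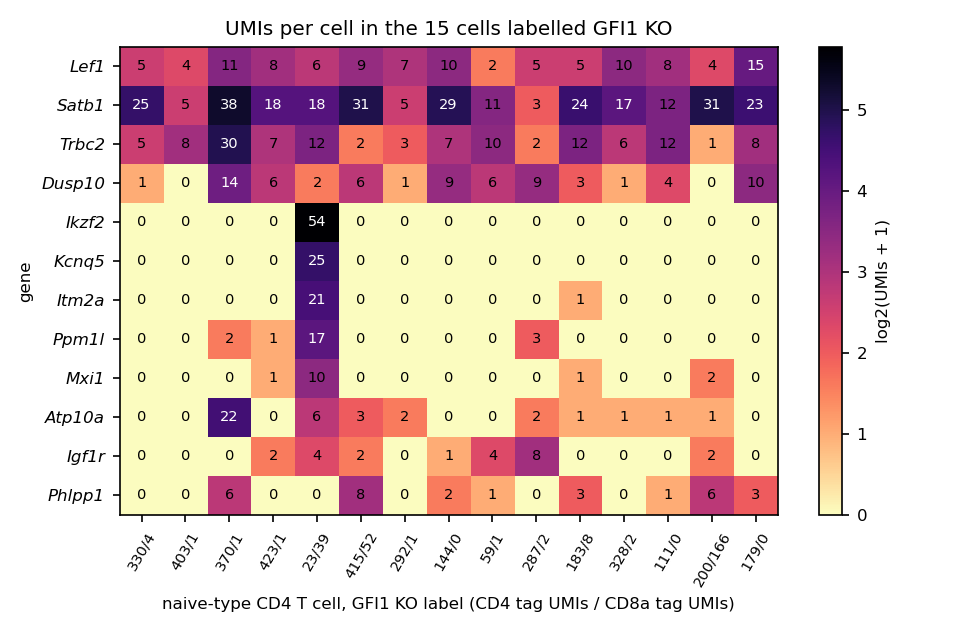
UMIs of 12 genes (rows, number printed and color as log2 of UMIs plus 1) in each of the 15 naive-type CD4 T cells labelled GFI1 KO (columns, named by their CD4 and CD8a tag UMIs). Lef1 is seen in all 15 cells, while Ikzf2 (54 UMIs) and Kcnq5 (25 UMIs) are seen in the cell with 23 CD4 and 39 CD8a tag UMIs alone.

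Other higher genes had UMIs in at least 5 of the 15 cells. Apobec3, a cytidine deaminase that restricts retroviruses, had 18 UMIs in 7 of 15 cells and 34 UMIs in 31 of 116 cells (ratio 3.99, 2.12 to 7.27), and 2.27 (1.58 to 3.19) outside the rule. Il18r1 had a ratio of 2.43 (1.88 to 3.12) outside the rule. Arhgap12, a GTPase-activating protein, had 15 and 35 UMIs in 7 and 27 cells (ratio 3.23), but 9 of the 15 in 1 cell, and a ratio of 1.69 (1.12 to 2.49) outside the rule, and Igf1r, the IGF-1 receptor, 23 and 62 UMIs in 7 and 27 cells (ratio 2.80) and 1.48 (1.07 to 2.02). Shld1, a DNA repair protein, had 16 and 36 UMIs in 10 and 25 cells (ratio 3.35) but 1.03 (0.650 to 1.55) outside the rule. For Phlpp1, Ppp1r11, Chmp3, Rabgap1l and Atp10a the interval outside the rule also included 1, and Gramd1b had 0.454 (0.163 to 1.02) there, with 5 of its 11 UMIs under the KO label in the cell with the low CD4 tag.

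Counts in the other gene groups were small, and are to be read against the 4.71% of all genes compared that were at least 2-fold higher and the 11.9% lower. Of 8 interferon-induced genes compared, Ly6a, the stem cell antigen Sca-1, was at least 2-fold higher under the KO label, with 14 UMIs in 6 cells and 44 UMIs in 30 cells (ratio 2.40, 1.21 to 4.46), and 3.25 (2.54 to 4.11) outside the rule. Ifi27l2a, the most abundant of them, stood at 346 and 629 CPM (ratio 0.549, 0.325 to 0.875), and its ratio turned to 1.29 (1.09 to 1.52) outside the rule. The interferon list summed to a ratio of 1.14 (0.943 to 1.37), and 1.38 (1.27 to 1.51) outside the rule. Of 13 surface genes, among them the Ly6 and Ms4a families and MHC class I, Ly6a and Cd37, a tetraspanin, were at least 2-fold higher, and the list summed to a ratio of 1.18 (1.09 to 1.27). The surface list was also higher under the KO label in naive-type CD8 T cells (16600 and 12301 CPM) and B-type cells (11411 and 9711 CPM). In the Foxp3-negative CD4 class it stood at 15891 and 12703 CPM. Among 4 cell cycle genes compared, Pcna was at least 2-fold lower, and the 12 listed genes had a summed ratio of 0.834 (0.637 to 1.08). Of 15 immediate early genes, 1 (Dusp1, a MAP kinase phosphatase, 5 and 116 UMIs) was at least 2-fold lower, and the summed ratio was 1.03 (0.939 to 1.14), against 1.17 (1.12 to 1.23) outside the rule. Dissociation can induce this group, and its part in the results was not tested. Heat shock and stress genes summed to 9131 CPM with the KO label and 7556 CPM with the WT label (ratio 1.21, 1.10 to 1.33), led by Hsp90ab1, a chaperone, at 3274 and 2095 CPM. Of 11 of these genes compared, none was at least 2-fold higher and 1 (Hsph1) was at least 2-fold lower. The heat shock sum was also higher under the KO label in naive-type CD8 T cells (9214 and 7470 CPM) and B-type cells (7368 and 5900 CPM). In the Foxp3-negative CD4 class it stood at 7644 and 6367 CPM. The cell with 23 CD4 tag UMIs held 47 of the 180 Hsp90ab1 UMIs of the KO label, and without it the ratio went from 1.56 to 1.27 (1.05 to 1.52). Growth and metabolism genes summed to 5511 and 4287 CPM (ratio 1.29, 1.13 to 1.45), with Npm1, a nucleolar protein, at 1601 and 1242 CPM (ratio without that cell 1.17, 0.905 to 1.5). Eno1 and Pgk1, enzymes of glycolysis with 2 and 1 UMIs under the KO label, were at least 2-fold lower. The growth sum was also higher under the KO label in naive-type CD8 T cells (6297 and 4201 CPM) and B-type cells (3320 and 3139 CPM). In the Foxp3-negative CD4 class it stood at 5307 and 4520 CPM. The log2 ratio of the growth sum, 0.36, was 0.15 in the cells with the CD4 and without the CD8a tag and 0.80 without cells holding UMIs of 6 genes of other cell types, and that of the heat shock sum, 0.27, was 0.10 with TMM scaling. The ribosomal share of all UMIs moved with these, at 32.0% and 27.5%, with 33.7% and 28.4% in naive-type CD8 T cells and 20.7% and 18.9% in B-type cells. It went the other way in the Foxp3-negative CD4 class, at 21.8% and 23.4%, and in Foxp3-positive CD4 T cells, at 16.0% and 17.5%. Its part in the results was not tested.

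Factors that bind GFI1 or are linked to it were read next. Of 20 such genes 11 had enough UMIs, and 9 of these lay within 2-fold, Gata3 was lower, and Ikzf2 was higher through the single cell described above, against 11.9% lower and 4.71% higher among all genes compared. Gfi1b, Id1 and Blk had no UMI in the 131 cells. Maf, a factor of effector T cells that fell short of the UMI minimum, had 10 UMIs in 4 of 15 cells (5 of them in 1 cell) and 16 UMIs in 8 of 116 cells (ratio 4.72, 1.91 to 11.1). Its ratio was 2.92 (1.70 to 4.82) outside the rule and 4.18 (3.53 to 4.96) in the CD4 class with Icos, Ctla4, Cxcr6 or Il1rl1.

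Markers of other cells were read in the 131 cells with free RNA and mixed droplets in mind, but the sums do not measure these alone. Gata3, which leads a sum below, is also a factor of CD4 T cells. Pecam1, which leads another, was at least 2-fold higher than in naive-type CD8 T cells under the WT label. B cell genes summed to 218 CPM with the KO label and 395 CPM with the WT label over 13 genes, led by Ighm at 200.1 and 258 CPM, with Ms4a1 and Ighd at 0 UMIs under both labels. Monocyte and granulocyte genes summed to 455 and 731 CPM over 20 genes, with Lyz2 at 164 and 111 CPM and S100a9 at 0 and 90 UMIs, of which 80 lay in 1 cell. In B-type cells of the same libraries S100a9 stood at 15.1 and 238 CPM. Alveolar macrophage genes summed to 164 and 347 CPM over 12 genes, led by Chil3 under the KO label (3 UMIs) and Ctsd under the WT label (78 UMIs), endothelial genes to 455 and 798 CPM over 10 genes, led by Pecam1, and epithelial and stromal genes to 164 and 198 CPM over 13 genes, all of it under the KO label from Scgb1a1, a club cell secretory protein. Natural killer and innate lymphoid genes summed to 164 and 215 CPM over 14 genes, led by Prf1 under the KO label (5 UMIs) and Gata3 under the WT label (62 UMIs), with Ncr1 and Klrb1c at 0 under both labels. Innate-like T cell genes summed to 164 and 38.6 CPM over the 10 listed genes found in the files, with no gene above 3 UMIs under the KO label, Fcer1g most abundant under the WT label (13 UMIs) and Zbtb16 at 0 under both labels, and CD8 and regulatory T cell genes, through Ikzf2, to 1000.4 and 209.8 CPM. The part of free RNA in the results was not tested.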

How the data were processed

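The authors deposited raw counts of UMIs for 33696 genes and 18 antibody tags per called cell. The submitters' processing notes name Cell Ranger 9.0.1 and the build GRCm39 (mm39). The libraries held 10700 cells with 116825535 gene UMIs (GFI1 KO) and 19515 cells with 162599284 (GFI1 WT), and 74 barcodes occurred in both, none of them among the 131 cells. 1 library per genotype was analysed here. Cells needed 500 UMIs, 200 genes and at most 20% of mitochondrial UMIs. Levels (CPM) are the summed UMIs of a class in 1 library over its total without 9548 ribosomal, mitochondrial and Gm- genes. They have exact Poisson, ratios exact conditional binomial and shares Clopper-Pearson 95% intervals, and differences of shares the square-and-add interval. These cover counting error only. Genes with at least 30 UMIs over both labels were compared by a 2-fold rule, with a count of 0 set to 3 UMIs. Counts of 1 and 2 were not raised, so a gene with 1 UMI could be called lower where a gene with 0 was not. Of the genes compared, 28 had 0 UMIs under the KO label. For detection at equal depth, cells were thinned to 1500 UMIs. In the thinned alternative the rule was applied to the thinned counts, so both depth and the cells chosen changed. Named genes were those of 23 lists (346 of 350 symbols matched) and, by the interval bound nearer to 1, the 10 highest and 10 lowest ratios among genes at least 3 times as high in the class as in B-type cells, 6 and 6 among the others, and 10 and 10 against naive-type CD8 T cells with the same direction in both libraries. The demand to be at least 3 times as high as in B-type cells could be met under 1 label alone. Ppm1l, Mxi1, Arhgap12 and Gramd1b met it only under the KO label. Tex2, Il12rb2, Pde4d, Fgf13, Ctsd and Eeig1 met it only under the WT label. This demand thus partly chose these genes for their difference between labels. The members, lists and tests were chosen with earlier results of these data known. No doublets were removed in the reported setting. Alternatives changed filters, scaling, thinning, tag demands and the rule itself, and those on Icos and on CD4 by tag, with the cells outside the rule, were chosen after seeing the data. The interval code was tested on simulated data. Python 3.11.15, scipy 1.17.1, scanpy 1.11.5 (Scrublet) and edgeR 4.0.16 (TMM factors) were used.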

Additional observations from a re-analysis of the deposited data

Results flagged for a closer look

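For 5 named genes the ratio of the KO label to the WT label lay on opposite sides of 1 in naive-type CD4 and naive-type CD8 T cells, with both counting intervals off 1. The difference between the classes was not tested. Ikzf2 had ratios of 7.27 in CD4 and 0.262 in CD8 cells, Mxi1 4.80 and 0.398, Igf1r 2.80 and 0.294, Rabgap1l, a GTPase regulator, 2.51 and 0.754, and Crybg1 0.402 and 1.42. Without the single cell labelled GFI1 KO whose CD4 tag was 23 UMIs, Ikzf2 had 0 UMIs under the KO label, and Mxi1 had a ratio of 1.5 (0.377 to 4.43), Igf1r 2.53 (1.43 to 4.30), Rabgap1l 2.15 (1.33 to 3.37) and Crybg1 0.441 (0.225 to 0.786).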

How the results depend on the processing

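With 15 cells under the KO label, counts rest on few UMIs. The share difference stayed below 0 in every setting run. It was -0.46 points over all cells, and, in settings added after seeing the data, -9.85 points with Icos allowed, -5.41 with CD4 by tag and -15.5 with both. The 158 higher and 401 lower genes became 30 and 63 in cells thinned to 1500 UMIs (4 and 63 cells, 365 genes), 619 and 713 with at least 10 UMIs per gene, 13 and 46 with at least 100, 351 and 681 with Icos allowed, and 262 and 667 with tag and Icos both changed. TMM gave 91 higher genes and 567 lower. The log2 ratio of the summed naive program, -0.14, was -0.59 thinned, -0.41 without cells holding UMIs of 6 genes of other cell types, -0.26 over all gene UMIs, -0.32 by TMM, -0.059 by median of ratios, -0.23 with Icos allowed and -0.23 with both changes. That of memory genes, -0.15, was 1.55 thinned, 0.49 with Icos allowed, -0.09 with CD4 by tag and 0.35 with both. Single genes turned direction. With the planned demand for CD4 and against CD8a tags, Ikzf2 went to -0.89 and Itm2a to -2.10 (log2). In the thinned cells, which the rule chose anew, Fgf13 went to 0.59 and Zfp36l2 to 0.85. Without cells holding the 6 genes, Phlpp1 went to -0.30. With Icos allowed, Nmt2 went to 0.32. With CD4 by tag, Ikzf2 went to -1.44, Ppm1l to -0.15, Mxi1 to -0.48, Itm2a to -1.38, Fgf13 to 0.040, Kcnq5 to -2.09 and Malt1 to 0.20. With both changes, Ppm1l went to -0.036, Mxi1 to -0.63, Itm2a to -0.72, Gramd1b to -0.49, Fgf13 to 0.29 and Kcnq5 to -0.65. By construction, some settings hold fewer cells or genes and others more, and other causes were not tested. A named gene under 30 UMIs in a setting got no value there. Scrublet called 0 and 1 of the cells. At tag limits of 10 and 100, 15 and 13 of 15 KO-labelled and 116 and 114 of 116 WT-labelled cells had the CD4 tag. No paired analysis was possible because each label has 1 library.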

Other observations

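Variable gene segments of the T cell receptor were too sparse to describe clones. Over the 35 Trbv genes in the files, the cells labelled GFI1 KO had 0 UMIs and those labelled GFI1 WT 18, and over 130 Trav genes 3 and 13. No Trgv or Trdv segment was seen in these cells. In the 55 and 469 CD4 T cells outside the rule, 28 naive program genes were all within 2-fold (4.01% of all 7278 genes compared there were at least 2-fold higher and 9.69% lower), and their summed level was 26477 CPM with the KO label and 31550 CPM with the WT label (ratio 0.839, 0.816 to 0.863). In those cells St8sia6 had a ratio of 0.403 (0.270 to 0.581), and S100a4, with 94 UMIs in 7 of 55 cells and 176 UMIs in 32 of 469 cells, 5.13 (3.95 to 6.63). Of the sex-linked genes listed, Xist stood at 1273 and 964 CPM in the naive-type CD4 T cells, and Ddx3y, Eif2s3y, Kdm5d and Uty had no UMI in these cells with either label.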
